A study of Saccharomyces cerevisiae with 39 samples.

Results

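The effect of the W5A substitution of Pho92 was measured in cells whose Pho92 already carried W18A. The comparison set the 3 libraries titled CUP1_Pho92_W5A_W18A (here W5A_W18A) against the 3 titled CUP1_Pho92_W18A (here W18A), 6 of the 39 libraries of a study of Saccharomyces cerevisiae with 13 strains of 3 libraries each. Libraries were taken into the comparison by their titles alone. Each is a poly(A)-selected, strand-specific RNA-seq library from a diploid culture of mating type MATa/alpha with the markers trp1::hisG, his3::hisG, leu2::hisG, ura3, lys2 and ho::LYS2. In both strains the endogenous gene was replaced (hyg::pho92), and an HA-tagged copy under the copper-inducible CUP1 promoter stood at trp1, as trp1::CUP1-HA-PHO92-W5A/W18A or as trp1::CUP1-HA-PHO92-W18A. Cultures in acetate sporulation medium received copper sulphate (50 µM) after 3 h, in both strains alike. The collection time is not given in the labels. The protocols speak of an arrest in early meiosis and of degron strains, but neither genotype lists an arrest allele or a degron. Another 3 comparisons are set beside this one. W5A (trp1::CUP1-HA-PHO92-W5A), W177A (trp1::CUP1-HA-PHO92-W177A) and pho92_null (pho92::HYG, without a copy) were each compared with CUP1_WT, which carries the copy without a substitution (Trp1::CUP1-HA-PHO92-WT). The wild type (WT) carries the shared markers alone, with its endogenous PHO92 and without a copy, and enters for PHO92 levels, shares of counts and the choice of a gene set. The medium and the copper were the same for all of these strains, and W5A, W177A and CUP1_WT lack the endogenous gene too. The labels do not say that the libraries of a strain came from separate cultures, so p-values measure only the spread between these libraries.

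Pho92 is the YTH-domain protein of budding yeast, which binds N6-methyladenosine (m6A) in mRNA through an aromatic pocket that includes the tryptophan changed in W177A. The methylation is laid down during early meiosis by a complex that includes Ime4, Mum2 and Slz1, under the control of the master regulator Ime1, and Pho92 promotes the decay of methylated transcripts through the CCR4-NOT deadenylase. Later in the programme the transcription factor Ndt80 switches on the middle genes, which drive the meiotic divisions and build the prospore membrane and the spore wall.

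The 2 substitutions lie in the N-terminal part of the protein, outside the YTH domain, and the design text counts their strains among mutants of an intrinsically disordered region. The first 24 of the 306 codons of PHO92 (YDR374C, chromosome IV, minus strand, RefSeq assembly R64) are shown because both changed residues fall within them. The capitals mark the tryptophan codons 5 and 18, counted from the start codon, which W5A and W18A turn into alanine codons.
PHO92 codons 1 to 24: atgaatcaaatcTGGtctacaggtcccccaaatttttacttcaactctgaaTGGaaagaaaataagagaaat
The endogenous reference sequence is shown, and the sequence of the integrated copies was not analysed here.

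The 6 libraries held 18165678 to 23363521 counts, within the range of 15928411 to 37186964 over all 39. The 3 W5A_W18A libraries lay close together, at 38.2, 30.3 and 31.4 on the first principal component of the 39 libraries, which held 54.9% of the variance. The W18A libraries lay at -38.8, -30.1 and -5.14, so W18A replicate 3 stood apart from the other 2 W18A libraries and nearest to the W5A_W18A libraries. This was not particular to W18A. Replicate 3 was shifted the same way in CUP1_WT (-43.9, -34.3 and -3.75), WT (-39.8, -36 and -7.02) and W177A (-14.7, -12.7 and 16.7). In W5A (31.5, 40.4 and 40) it was not set apart from replicate 2. Early-meiosis markers (IME1, IME2, SPO11, HOP1, REC8, ZIP1, DMC1 and SPO13) were abundant in all 6, with summed levels of 11796 to 13535 counts per 1000000 (CPM, normalised) in W5A_W18A and 15466 to 18754 CPM in W18A. The late markers DIT1, DIT2 and SPS100 summed to 41.8 to 50.4 CPM in W5A_W18A and 49.2 to 115 CPM in W18A. Of 12 markers of haploid or mating cells 11 were in the table. They summed to 139 to 161 CPM in W5A_W18A and 152 to 347 CPM in W18A. None of the 11 was at 0 in every library, and the mating pheromone genes MFA1, MFA2 and MF(ALPHA)2 were under 1.5 CPM in each of the 6. The pheromone gene MF(ALPHA)1 was higher, at 6.16 to 8.24 CPM in W5A_W18A and 7.62 to 9.84 CPM in W18A. The most abundant of the 11 in a single library was STE4, at 141, 97.5 and 37.7 CPM in W18A and 21.5 to 27 CPM in W5A_W18A.

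PHO92 itself was abundant in every induced library. It stood at 15182, 16626 and 12749 CPM in the W5A_W18A libraries, against 8454, 9933 and 12139 CPM in the W18A libraries. The 3 W5A_W18A libraries were all above the W18A libraries, but W5A_W18A replicate 3 and W18A replicate 3 were close. The log2 difference of 0.55 (SE 0.44) had an adjusted p of 0.352 by limma, the test used throughout, which was fitted over all 39 libraries and adjusted over all 5840 features tested. With a fit of these 2 strains alone, the difference of 0.54 passed the threshold (adjusted p = 0.0418 by limma). The wild type with its endogenous gene had a mean of 938 ± 127 CPM (SD, n = 3) and pho92_null one of 1.13 CPM, with 2 to 45 counts per library. All 6 induced libraries were above the 3 wild-type libraries, and a level cannot show which substitution a library carries. W5A had a mean of 14790 ± 659 CPM (SD, n = 3), against 9746 ± 1519 CPM in CUP1_WT, without overlap. That log2 difference was 0.61 (SE 0.44, adjusted p = 0.275 by limma). Whether the PHO92 level contributed to the differences of other genes was not tested.

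Adding W5A to the W18A protein moved a large part of the transcriptome. Sporulation genes of the middle wave, the polo kinase CDC5 and the B-type cyclins were lower in W5A_W18A than in W18A, while nearly all cytosolic ribosomal protein genes, and many genes of ribosome biogenesis, iron uptake and amino acid and purine synthesis were higher. In all, 1745 of 5840 features (29.9%) passed an adjusted p of 0.05, 902 higher (15.4%) and 843 lower (14.4%). Of these, 591 differed by 2-fold or more, 266 higher and 325 lower. The median standard error of a log2 difference was 0.18, and the median log2 difference over all features was 0.02. All 3 W5A_W18A libraries lay above all 3 W18A libraries for 1561 features (26.7%) and below them for 1400 (24%). The count of calls was 741 without W18A replicate 1, 898 without W18A replicate 2 and 1078 without W5A_W18A replicate 1. Without W18A replicate 3 it was 1957, with 959 higher and 998 lower, and 1616 of the 1745 features were called again. In bulk RNA, fewer cells that express a gene and less of its RNA per cell cannot be told apart.

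**Figure D1:**
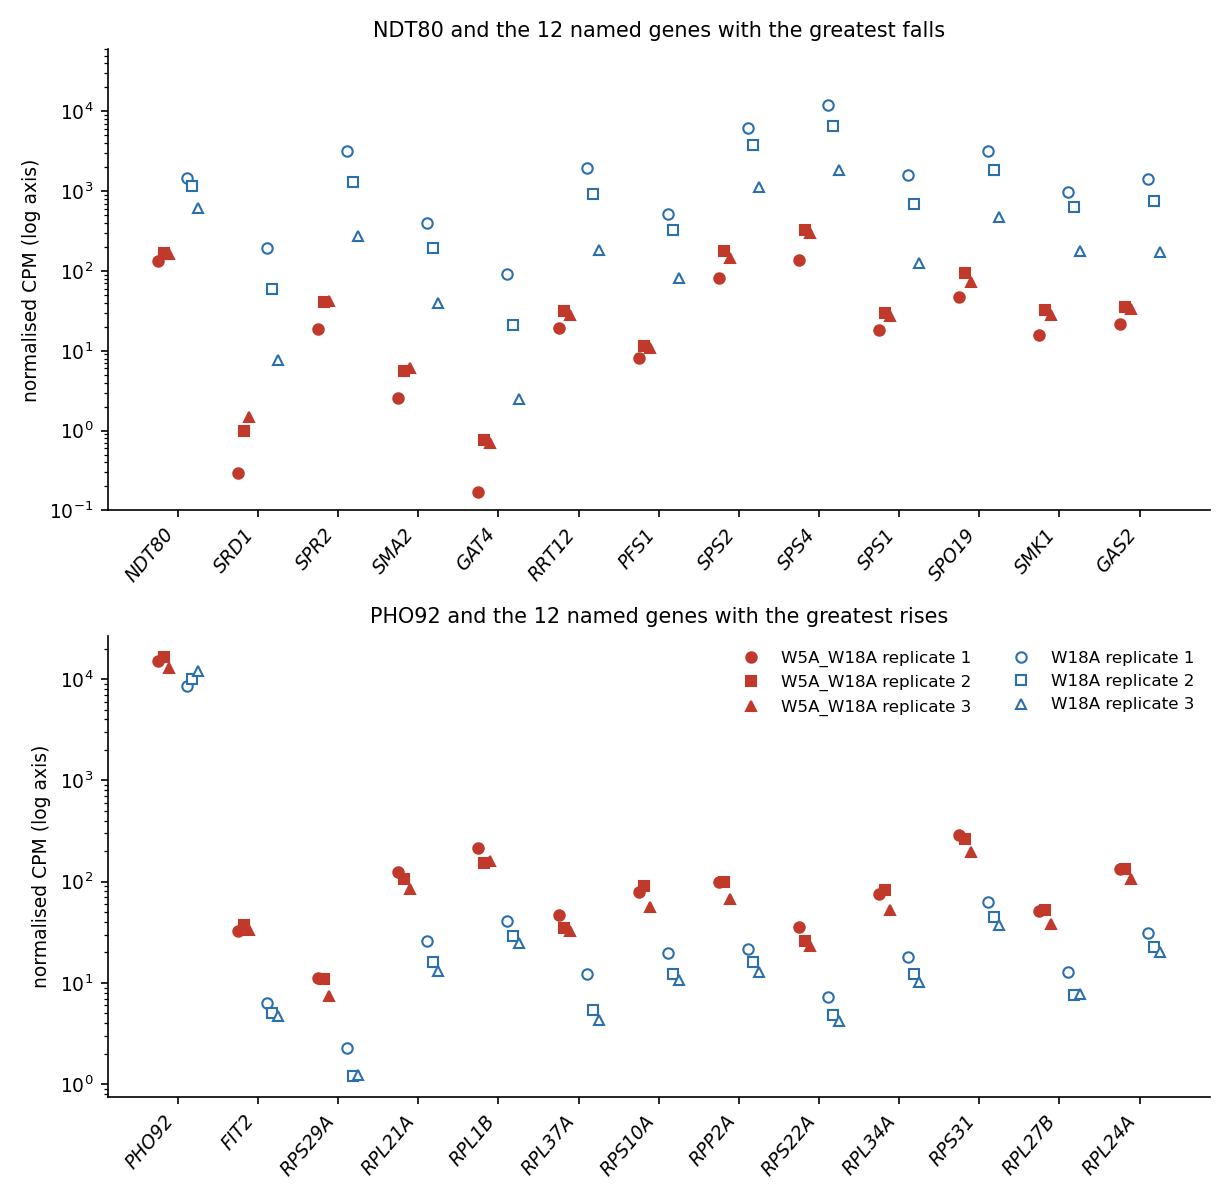
Normalised CPM (log axis) of NDT80 and the 12 greatest falls (upper panel) and of PHO92 and the 12 greatest rises (lower panel) in each library, with filled red symbols for W5A_W18A and open blue symbols for W18A. SPS4 lies at 139, 329 and 296 CPM in W5A_W18A, against 11978, 6490 and 1844 CPM in W18A, and W18A replicate 3 is the lowest W18A library for each gene of the upper panel.

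The 12 greatest falls among genes with a name and at least 50 counts were SRD1, SPR2, SMA2, GAT4, RRT12, PFS1, SPS2, SPS4, SPS1, SPO19, SMK1 and GAS2, between 19.4 and 51.3 times lower in W5A_W18A. Most of them are known from the building of spores. SMA2, needed for prospore membrane assembly, had 2.54, 5.63 and 6.01 CPM in W5A_W18A, against 396, 193 and 39.9 CPM in W18A (log2 difference -5.01, SE 1.24, adjusted p = 0.00514 by limma). RRT12, a subtilisin-like protease of the spore wall's dityrosine layer, had 19, 31.3 and 28.4 CPM in W5A_W18A, against 1952, 918 and 182 CPM in W18A (log2 difference -4.74, SE 1.11, adjusted p = 0.00362 by limma). The groups did not overlap for either gene, and in both W18A replicate 1 was highest and W18A replicate 3 lowest.

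SMK1 encodes the MAP kinase that times spore wall assembly, and SPS1 a kinase acting beside it. SMK1 had 15.7, 32.1 and 28 CPM in W5A_W18A, against 968, 638 and 178 CPM in W18A (log2 difference -4.30, SE 1.15, adjusted p = 0.00761 by limma). SPS1 had 18.2, 30.1 and 27 CPM in W5A_W18A, against 1577, 683 and 127 CPM in W18A (log2 difference -4.39, SE 1.12, adjusted p = 0.00612 by limma). GAS2, a glucan-elongating enzyme of the spore wall, had 21.5, 35.2 and 33 CPM in W5A_W18A, against 1418, 748 and 175 CPM in W18A (log2 difference -4.28, SE 1.04, adjusted p = 0.0045 by limma). The W5A_W18A libraries spanned about 2-fold for these genes and the W18A libraries far more, with no overlap between strains.

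The fall was steepest for SRD1, a zinc-finger gene linked to ribosomal RNA processing, at 0.296, 0.974 and 1.49 CPM in W5A_W18A, against 195, 59.3 and 7.62 CPM in W18A (log2 difference -5.68, SE 1.66, adjusted p = 0.0129 by limma). SPR2, a putative spore wall gene, had 18.5, 41.1 and 41.6 CPM in W5A_W18A, against 3184, 1315 and 271 CPM in W18A (log2 difference -5.04, SE 1.5, adjusted p = 0.0142 by limma). The GATA-type zinc-finger gene GAT4 (log2 difference -4.92), the prospore gene PFS1 (-4.57), the sporulation genes SPS2 (-4.54) and SPS4 (-4.46) and SPO19, which encodes a prospore protein (-4.38), completed the list. Without W18A replicate 1 the calls of SRD1, SPR2, GAT4, SPS2, SPS4, SPS1, SPO19 and SMK1 were lost. GAT4, SPR2, SPS2 and SPS4 also lost theirs without W18A replicate 2, and these 4 and SRD1 without W5A_W18A replicate 1. SRD1 and GAT4 lost theirs with voom weights, and GAT4 also with the replicate number as a block in a fit of the 2 strains alone.

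As a group, the genes of the spore wall and other sporulation-specific genes stood out against all features. Of the 35 tested, 28 (80%) fell and none rose, against 14.4% that fell and 15.4% that rose over all features, with a median log2 difference of -3.66. The 7 that were not called were RRT8, SPS19, OSW7, LDO16, DIT1, SPS100 and SHC1. CDA2, a chitin deacetylase that makes the chitosan layer, had 90.8, 186 and 160 CPM in W5A_W18A, against 3590, 2439 and 840 CPM in W18A (log2 difference -3.80). The late genes were low in all 6 libraries. DIT1, which starts the synthesis of the dityrosine layer, had 17.9 to 24.4 CPM in W5A_W18A and 22.2 to 50.6 CPM in W18A, and the groups overlapped. The late marker DIT2 fell, at 5.20, 6.64 and 4.77 CPM in W5A_W18A against 52.3, 35.2 and 10.8 CPM in W18A (log2 difference -2.28, adjusted p = 0.00543 by limma). SPS100 went the other way without a call (log2 difference 0.39, adjusted p = 0.120 by limma).

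Genes of the prospore membrane and of the meiotic outer plaque, the spindle-pole structure on which that membrane starts, fell in 21 of 28 cases (75%) and rose in none, with a median log2 difference of -2.55. SPO21, a plaque subunit, had 29, 42.3 and 39.2 CPM in W5A_W18A, against 849, 629 and 208 CPM in W18A (log2 difference -3.72, SE 0.76, adjusted p = 0.0017 by limma). SSP1, which forms the leading-edge coat of the membrane, had 46.3, 80.8 and 64.6 CPM in W5A_W18A, against 1170, 889 and 333 CPM in W18A (log2 difference -3.49). CNM67 (-2.23), SPO14 (-1.87), ADY4 (-2.66) and SPO71 (-1.63) were lower too. The members not called were AMA1, FKS3, MPC54, VPS13, SPO1, MSO1 and NUD1. AMA1, an activator of the meiotic anaphase-promoting complex, had 763 to 839 CPM in W5A_W18A and 1168 to 2249 CPM in W18A, without overlap, at an adjusted p of 0.0589 by limma.

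Summed over each list, the spore wall genes held 0.469%, 0.547% and 0.527% of the counts of the W5A_W18A libraries, against 5.97%, 3.83% and 1.55% of the W18A libraries. The prospore genes held 0.446%, 0.515% and 0.501% in W5A_W18A, against 2.25%, 1.68% and 0.992% in W18A. The means differed by 7.35 and 3.37 times, lower in W5A_W18A, and each W5A_W18A library was below each W18A library. An exact two-sided permutation test gave p = 0.1 for both, the smallest value that 3 libraries against 3 allow. Without W18A replicate 3, 33 spore wall genes and 22 prospore genes were called lower. Without W18A replicate 1, 13 and 14 were.

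**Figure D2:**
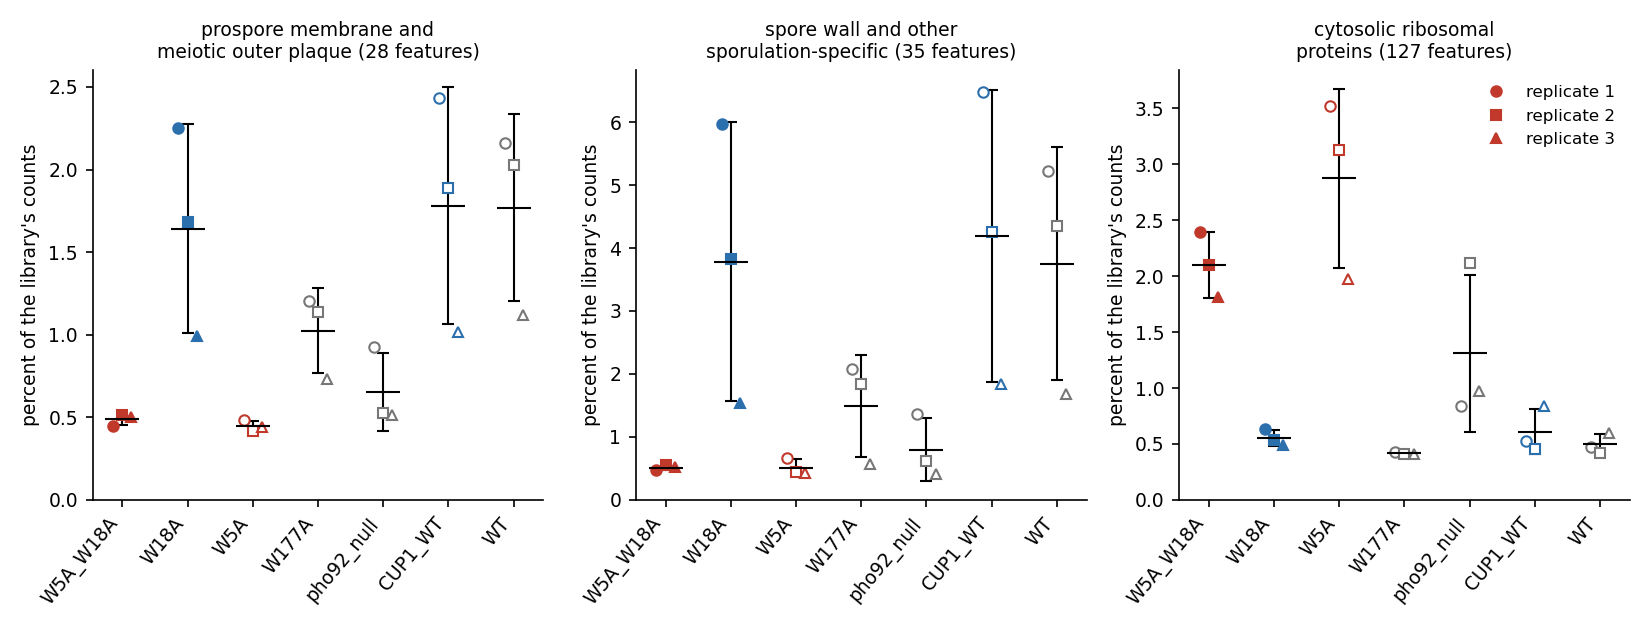
Share of each library's counts (percent) held by 3 gene lists in 7 strains, with a point per library, a bar at the mean and whiskers of 1 SD (n = 3 each). W5A_W18A holds 0.514 ± 0.0407% in spore wall genes, against 3.78 ± 2.21% in W18A, and 2.10 ± 0.292% in ribosomal protein genes, against 0.553 ± 0.0701% in W18A.

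NDT80, the switch for the middle genes, was itself lower. It had 134, 166 and 165 CPM in W5A_W18A, against 1449, 1145 and 612 CPM in W18A (log2 difference -2.70, SE 0.63, adjusted p = 0.00359 by limma). Of its repressors, the DNA-binding subunit SUM1 had 83.9 to 94.8 CPM in W5A_W18A and 71.6 to 96.3 CPM in W18A, with overlap (log2 difference 0.06). The deacetylase subunit HST1 fell, at 248, 250 and 256 CPM in W5A_W18A against 677, 661 and 427 CPM in W18A (log2 difference -1.20, SE 0.25, adjusted p = 0.0017 by limma). RFM1, which joins the other two, fell by 0.56 on the log2 scale.

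Earlier steps of meiosis differed less. IME1 had 3024, 3806 and 3059 CPM in W5A_W18A, against 3080, 4035 and 4279 CPM in W18A, with overlap (log2 difference -0.20, SE 0.25, adjusted p = 0.572 by limma). Its downstream kinase IME2 fell, at 2279, 2681 and 2714 CPM in W5A_W18A against 5466, 6242 and 4548 CPM in W18A (log2 difference -1.08, SE 0.36, adjusted p = 0.0262 by limma). IME2 was 1 of 5 lower among 15 regulators of meiotic entry (33.3%, against 14.4% of all features), none of which was higher. The other 4 were SIN3 (-0.57), a subunit of the Rpd3 corepressor, the kinases RIM15 (-0.67) and MCK1 (-0.33), and IDS2 (-0.96), a modulator of Ime2. The median of the 15 was -0.20. Of the 5, 2 were called without W18A replicate 1, and 3 without W18A replicate 2 or W5A_W18A replicate 1 or 3.

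Of 38 genes of recombination and synapsis 4 fell (10.5%) and none rose, a share below that of all features. They were MAM1 (-2.34), the monopolin subunit that clamps sister kinetochores together, RAD52 (-0.57), RAD54 (-0.33) and SKI8 (-0.37). The median of the 38 was -0.39, and 3 of them had a log2 difference above 0. Each W5A_W18A library was below each W18A library for 23 of the 38, against 24% of all features. In a fit of the 2 strains alone 20 of the 38 fell, and without W18A replicate 1 or 2 or W5A_W18A replicate 1 or 2, 1 or 2 did. HOP1, an axis protein, had 1411 to 1560 CPM in W5A_W18A and 1364 to 1924 CPM in W18A, and REC8, the meiotic cohesin, 1261 to 1353 CPM in W5A_W18A and 1207 to 1650 CPM in W18A. The groups overlapped for both. None of the 7 genes of the m6A writer and reader passed the test, and their median was -0.13. IME4, the catalytic subunit, had 240 to 265 CPM in W5A_W18A and 245 to 324 CPM in W18A. SLZ1, the meiosis-specific subunit, had 1122 to 1370 CPM in W5A_W18A and 1964 to 2540 CPM in W18A, without overlap, at an adjusted p of 0.057 by limma. SLZ1 passed in a fit of the 2 strains alone (adjusted p = 0.00552 by limma), with the replicate block (0.0190) and with both (0.0181), and PHO92, which is in this list too, passed in the first of these fits.

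Of 27 cyclins and cell-cycle regulators 14 fell (51.9%, against 14.4% of all features). Another 4 rose (14.8%, near the 15.4% of all features). CDC5, the polo kinase, had 84.9, 140 and 122 CPM in W5A_W18A, against 1207, 1126 and 487 CPM in W18A (log2 difference -2.94, SE 0.63, adjusted p = 0.00197 by limma). The B-type cyclin CLB1, which acts in the first division, had 24.2, 18.8 and 19.5 CPM in W5A_W18A, against 581, 356 and 79.7 CPM in W18A (log2 difference -3.61, SE 0.85, adjusted p = 0.00377 by limma). Both sets were separate, with W18A replicate 3 the lowest W18A library. CLB3 (-1.29), CLB4 (-2.51), CLB5 (-0.97) and CLB6 (-2.94), CDC20 (-2.85), an activator of the anaphase-promoting complex, and the phosphatase CDC14 (-1.17) fell as well. The 4 that rose are known from the mitotic G1 phase. They were the G1 cyclins CLN1 (1.09) and CLN3 (0.88), the Pho85 cyclin PCL2 (0.56) and the inhibitor SIC1 (0.40). CLN3 had 28.9, 42.7 and 45.9 CPM in W5A_W18A, against 18.1, 22.2 and 22.6 CPM in W18A. Without W18A replicate 1, 6 of the 27 were called lower and 2 higher, and without W18A replicate 2, 9 and 2.

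The list with the highest share of rises was that of the cytosolic ribosomal proteins. Of 138 listed, 127 were in the table and were tested. Of the 127, 122 rose (96.1%, against 15.4% of all features), 1 fell and 4 were not called, with a median log2 difference of 1.88. All 3 W5A_W18A libraries were above all 3 W18A libraries for 124 of them, against 26.7% of all features. Together these genes held 2.39%, 2.10% and 1.81% of the counts of the W5A_W18A libraries, against 0.631%, 0.532% and 0.495% of the W18A libraries, 3.80 times more on average (exact two-sided permutation p = 0.1, the smallest possible). Without W18A replicate 3, which stood apart, 118 of the 127 rose, and leaving out any single library gave 115 to 121.

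By the same limits of a name and at least 50 counts, 11 of the 12 greatest rises were ribosomal protein genes, and the 12 were between 5.07 and 6.29 times higher in W5A_W18A. RPL21A, of the large subunit, had 125, 106 and 84.3 CPM in W5A_W18A, against 26, 16 and 13.1 CPM in W18A (log2 difference 2.55, SE 0.54, adjusted p = 0.00197 by limma). RPP2A, of the acidic stalk, had 98.2, 99.7 and 68 CPM in W5A_W18A, against 21.8, 16.3 and 12.9 CPM in W18A (log2 difference 2.39, SE 0.41, adjusted p = 0.000764 by limma). RPS31, made as a fusion with ubiquitin, had 291, 261 and 194 CPM in W5A_W18A, against 62.4, 45.3 and 37.1 CPM in W18A (log2 difference 2.38, SE 0.45, adjusted p = 0.0011 by limma). In both strains replicate 3 was lowest for these 3 genes, and the strains were far apart.

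RPL1B (2.50), RPL37A (2.49), RPL34A (2.38), RPL27B (2.36) and RPL24A (2.34) of the large subunit and RPS29A (2.61), RPS10A (2.43) and RPS22A (2.38) of the small subunit were the others. The lowest adjusted p-values of the list belonged to RPL19B (log2 difference 1.65), RPL19A (1.74), RPS0A (1.93) and RPP2A. RPL19B had 452, 499 and 380 CPM in W5A_W18A, against 153, 143 and 127 CPM in W18A (adjusted p = 0.00036 by limma). The exception was RPL15B, which fell, at 69.5, 53 and 67.1 CPM in W5A_W18A against 93.5, 90.8 and 79 CPM in W18A (log2 difference -0.48, adjusted p = 0.00955 by limma). ASC1, RPL18B, RPL29 and RPS28B were not called, at log2 differences of 0.80, 0.33, 0.70 and 0.58.

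Many ribosomal proteins are made from 2 nearly identical genes, and counting could split their reads in ways not known here. When the 2 genes of a pair were summed, all 53 pairs had each W5A_W18A library above each W18A library, by 1.59 to 4.63 times on average (median 3.45). Among all single features 26.7% were separated in that direction. Genes for ribosome biogenesis moved the same way but less far. Of 114, 71 rose (62.3%) and 2 fell, with a median of 0.64, and together they held 1.63 times the share of counts. LTV1, which exports the small subunit, had 60.4, 71.6 and 51.9 CPM in W5A_W18A, against 29.2, 27.8 and 26.7 CPM in W18A (log2 difference 1.12, SE 0.21, adjusted p = 0.00109 by limma). NOP2 (1.08), a ribosomal RNA methyltransferase, GAR1 (0.94), of the pseudouridylation particles, and MAK21 (0.58), of pre-60S particles, rose too. Without W18A replicate 1 or W5A_W18A replicate 2, 39 of the 114 were called higher, and without W18A replicate 2, 41.

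Genes of the mitochondrial ribosome did not rise as a group. Of 73 genes 2 rose and 17 fell (23.3%), with a median of -0.15. MRPL28 rose (0.60), and RSM23 (-0.47), RSM24 (-0.54) and MRPS35 (-0.61) fell. RSM24 had 54.8, 49.8 and 52.9 CPM in W5A_W18A, against 87.8, 75.4 and 66.7 CPM in W18A. The 17 became 5 without W18A replicate 1, 6 without W5A_W18A replicate 2 and 8 without W18A replicate 2.

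Of 66 genes of amino acid synthesis outside the sulfur branch 29 rose (43.9%, against 15.4% of all features) and 2 fell (median 0.72). ARO4, the first enzyme of aromatic amino acid synthesis, had 338, 341 and 305 CPM in W5A_W18A, against 116, 122 and 127 CPM in W18A (log2 difference 1.43, SE 0.30, adjusted p = 0.00176 by limma). ILV5, of branched-chain synthesis, had 2185, 2345 and 1958 CPM in W5A_W18A, against 904, 747 and 798 CPM in W18A (log2 difference 1.41). LYS5, which activates the lysine pathway's reductase, rose by 0.70. TRP1 rose by 1.27, but trp1 is the site where the copies were integrated. Of 38 genes of sulfate assimilation and methionine synthesis 8 rose (21.1%, a share near the 15.4% of all features) and none fell (median 0.32). They include HOM2 (1.37) and HOM3 (2.03), which make the homoserine precursor, SAM1 (1.68), an S-adenosylmethionine synthetase, and MET6 (1.54), methionine synthase. Of the 66, 18 were called higher without W18A replicate 1 and 17 without W18A replicate 2. Of the 38 sulfur genes 17 were called higher in a fit of the 2 strains alone, but 1 or 2 without W18A replicate 1 or 2 or any single W5A_W18A library.

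Of 17 genes of purine synthesis 11 rose (64.7%) and 1 fell (median 0.72). Among them were IMD3 (0.90), an IMP dehydrogenase, and ADE1 (0.73), ADE13 (0.63) and ADE6 (0.72) of the pathway to IMP. ADE1 had 100, 104 and 126 CPM in W5A_W18A, against 59, 60.2 and 81 CPM in W18A. Without W18A replicate 1, 2 of the 17 were called higher, and without any other single library but W18A replicate 3, 4 or 5. Of 7 genes of biotin synthesis and uptake the transporter gene VHT1 alone rose (1.68), and of 34 genes of sterol and fatty acid synthesis 7 rose (20.6%, near the share of all features) and none fell, ERG24 (0.82), IDI1 (0.68), ERG3 (1.6) and ERG20 (0.89) among them. Of these 7, 3 or 4 were called without W18A replicate 1 or 2 or W5A_W18A replicate 1, and 2 sterol genes were called lower without W18A replicate 3.

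The iron regulon, the targets of the iron-sensing factors Aft1 and Aft2, rose in 18 of 30 cases (60%) and fell in none, with a median of 0.61, and 2 were called lower without W18A replicate 3 or with the replicate block. FIT2, a cell-wall mannoprotein that holds siderophore iron, had the greatest of the 12 rises. It had 32.4, 36.9 and 33.2 CPM in W5A_W18A, against 6.38, 5.07 and 4.73 CPM in W18A (log2 difference 2.65, SE 0.52, adjusted p = 0.00128 by limma). The oxidase gene FET3 had 925, 993 and 963 CPM in W5A_W18A, against 245, 130 and 308 CPM in W18A (log2 difference 2.16, SE 0.51, adjusted p = 0.00373 by limma). Its partner, the permease FTR1 (1.94), and the siderophore transporter ARN1 (1.34) rose too. The strains did not overlap for either gene. Fet3 is a multicopper oxidase, and both strains received the same copper dose. Of 12 copper-response genes 3 rose (25%) and 2 fell (16.7%). The metallothionein CUP1-1, whose copies are nearly identical, rose by 0.58, as did the activator CUP2 (0.66) and the transporter CTR2 (0.75), while the transporters CTR1 (-0.80) and CTR3 (-0.79) fell. No copper gene was called lower without W18A replicate 1 or W5A_W18A replicate 2, 1 was without W18A replicate 2 or W5A_W18A replicate 1 or 3, and 4 were with the replicate block.

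Carbon metabolism was mixed. Among 21 hexose transporters and relatives 4 rose (19%) and 2 fell (9.52%), shares not far from the 15.4% and 14.4% of all features. HXT7, a high-affinity glucose transporter nearly identical to HXT6, had 1349, 913 and 730 CPM in W5A_W18A, against 247, 159 and 192 CPM in W18A (log2 difference 2.30, SE 0.47, adjusted p = 0.0017 by limma). HXT2 (1.44), VVS1 (0.64) and the hexokinase HXK2 (1.40) rose, while HXT14 (-4.08) and HXT10 (-4.20) fell. HXT10 had 7.02, 8.28 and 13.4 CPM in W5A_W18A, against 854, 174 and 33.3 CPM in W18A, the same order of W18A libraries as in the sporulation genes. Of 31 genes of acetate use, the glyoxylate cycle and gluconeogenesis 4 rose (12.9%) and 2 fell (6.45%), ATO3 (0.93), a putative ammonia or acetate transporter, and CIT3 (0.89), a mitochondrial citrate synthase, rising and PCK1 (-0.71) and ACH1 (-0.38) falling. Of 22 genes of glycogen and trehalose metabolism 3 fell (13.6%), SGA1 (-3.88), the sporulation-specific glucoamylase, UGP1 (-0.62) and PIG2 (-1.20). The respiratory chain had 1 higher (2.27%) and 3 lower (6.82%) of 44, below the shares of all features. These counts rest on single libraries. The hexose list had 2 higher without W18A replicate 2 or W5A_W18A replicate 1, none lower without W18A replicate 1, and 1 lower without W18A replicate 2 or any single W5A_W18A library. In the acetate list 2 were higher without W18A replicate 1, none was lower without W18A replicate 2 or W5A_W18A replicate 1, and 1 was lower without W5A_W18A replicate 2. The glycogen list had 1 lower without W18A replicate 1 and 1 higher without W18A replicate 3. In the respiratory list 1 was lower without W18A replicate 1 or W5A_W18A replicate 1 or 3 and none without W18A replicate 2, and 3 were higher without W18A replicate 3 and none without W18A replicate 1 or 2 or W5A_W18A replicate 1 or 2.

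Genes of the proteasome were lower by a small and even amount. Of 36 genes 20 fell (55.6%) and none rose, with a median of -0.46. Each W5A_W18A library was below each W18A library for 34 of the 36, against 24% of all features. RPN9, of the regulatory lid, had 327, 350 and 350 CPM in W5A_W18A, against 573, 593 and 517 CPM in W18A (log2 difference -0.71, SE 0.16, adjusted p = 0.00255 by limma). RPN2 (-0.66) and RPT3 (-0.55) of the base and PRE4 (-0.60) of the core fell too, while RPN4, their transcription factor, had 466 to 492 CPM in W5A_W18A and 403 to 626 CPM in W18A, with overlap. The 20 became 11 without W18A replicate 1 or W5A_W18A replicate 3, 5 without W18A replicate 2, 6 without W5A_W18A replicate 1 and 13 without W5A_W18A replicate 2. In a fit of the 2 strains alone 32 fell. Of 38 autophagy genes 12 fell (31.6%), ATG26 (-0.32), ATG32 (-1.22), the mitophagy receptor, and ATG2 (-0.51) among them, and ATG41 rose (2.03). Of the 12, 3 were called without W18A replicate 1, 4 without W18A replicate 2 and 6 without W5A_W18A replicate 1.

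Pho92 acts through mRNA turnover. The counts of the next lists stand beside 15.4% higher and 14.4% lower over all features. Of 9 genes of CCR4-NOT 4 fell (44.4%), CDC36 (-0.55), CAF130 (-0.29), NOT5 (-0.24) and NOT3 (-0.50), with none called without W18A replicate 1 or 2 and 1 without any single W5A_W18A library. Of 24 genes of decapping and 5'-3' decay EDC2 (-1.63) and NAM7 (-0.49), the helicase of nonsense-mediated decay, fell (8.33%) and none rose. The 2 became 1 without W18A replicate 1, 4 in a fit of the 2 strains alone and 6 with the replicate block. Of 11 cohesin genes the acetyltransferase ECO1 (0.47), RAD61 (0.45) and the mitotic kleisin MCD1 (0.55) rose (27.3%) and the cohesin protector SGO1 (-1.78) fell (9.09%). Of 16 kinetochore genes 4 fell (25%), NUF2 (-0.52), SPC19 (-0.64), MTW1 (-0.41) and SPC105 (-0.41). DNA replication had 7 higher (14.6%) and 5 lower (10.4%) of 48, shares no greater than those of all features. The histones had 4 higher (40%) and 2 lower (20%) of 10. ORC1, of the origin recognition complex, fell (-1.27) and ORC2 rose (0.58). If W18A replicate 1 was left out, the cohesin list had 1 higher, the kinetochore list 1 lower, the replication list 2 higher and 1 lower, and the histones 1 higher and none lower. With the 2 strains alone and the replicate block, 1 cohesin gene was higher. Other single libraries moved the replication list to as few as 3 higher and 1 lower (W18A replicate 2) and the histones to 1 higher (W18A replicate 2, W5A_W18A replicate 1) and none lower (W18A replicate 2, W5A_W18A replicates 2 and 3).

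Of 24 genes of the phosphate pathway 2 rose (8.33%) and 4 fell (16.7%), PHM6 (-2.75) the most, against 15.4% and 14.4% of all features. Of 24 genes for cell wall mannoproteins and their relatives 5 rose (20.8%) and 3 fell (12.5%), with TIP1 (1.01) higher and CWP1 (-2.97) lower. Of 37 heat shock and chaperone genes 2 rose (5.41%) and 5 fell (13.5%). HSC82, the constitutive Hsp90, fell by 0.78, and SSB1, the chaperone on ribosomes, had 483, 457 and 413 CPM in W5A_W18A, against 183, 154 and 141 CPM in W18A (log2 difference 1.51). Of 25 haploid-specific and mating genes 2 rose (8%), GPA1 (0.57) among them, and 6 fell (24%). STE18 (-3.39) and STE4 (-1.74), subunits of the pheromone-response G protein, FAR1 (-1.44) and FUS2 (-1.66) were lower. STE18 had 1.27, 1.95 and 3.33 CPM in W5A_W18A, against 71.5, 28.2 and 5.28 CPM in W18A, again with W18A replicate 3 the lowest of its strain. With W18A replicate 1 left out, 3 of the 25 mating genes, 2 phosphate genes and 3 heat shock genes were called lower and 1 mannoprotein gene higher, with none of these lower. Leaving out W18A replicate 2 gave 2 mating genes, 3 heat shock genes and no mannoprotein gene lower, and in a fit of the 2 strains alone 10 heat shock genes were lower.

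**Figure D3:**
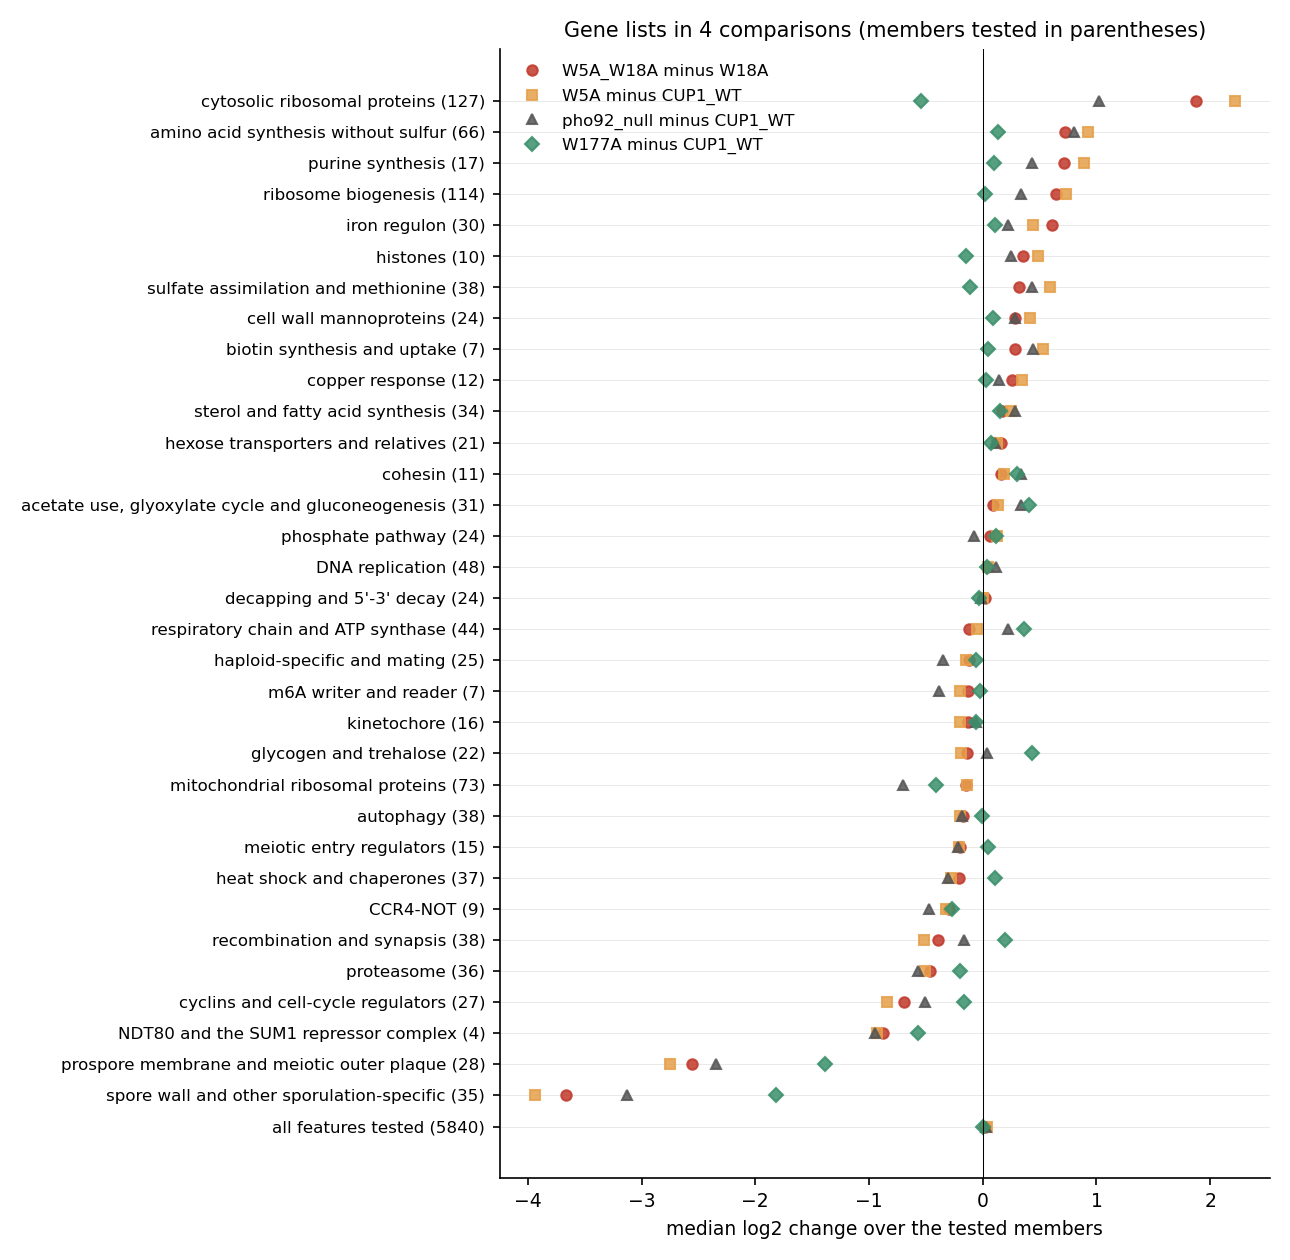
Median log2 difference over the tested members of each of 33 gene lists and over all 5840 features, for W5A_W18A minus W18A (red circles) and for W5A (squares), pho92_null (triangles) and W177A (diamonds) minus CUP1_WT. For W5A_W18A the medians run from -3.66 in spore wall genes to 1.88 in cytosolic ribosomal protein genes, where the W177A median is -0.54.

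The same substitution had also been placed in the otherwise intact copy, so W5A against CUP1_WT asks whether W18A alters what W5A does. The 4 strains share no library. W18A itself had no called feature against CUP1_WT by limma, with 13 at an unadjusted p under 0.05, and none with voom weights, with 8. Same-numbered libraries of these strains deviated together (correlations of 0.830, 0.125 and 0.741), so the numbers were taken to pair them. With the number as a block in a fit of the 2 strains alone there was again no call, but 197 features had an unadjusted p under 0.05, and with the block over all 39 libraries YPS6 (0.72) and COS12 (0.93) were called higher in W18A. The spore wall genes held 5.97%, 3.83% and 1.55% of counts in W18A, against 6.48%, 4.25% and 1.84% in CUP1_WT, lower in W18A in each same-numbered pair. Of the 35, 34 had a log2 difference below 0, with a median of -0.21 and no call under any setting run. That number was 3 without W18A replicate 3 and 4 without CUP1_WT replicate 1. W5A against CUP1_WT gave 2277 calls (39% of features), 1218 higher (20.9%) and 1059 lower (18.1%). The replicate numbers also pair those 2 strains, and with the number as a block in a fit of the 2 strains alone there were 1293 calls, 679 higher and 614 lower. Without CUP1_WT replicate 1 there were 1251.

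The same genes moved the same way in both backgrounds. Both comparisons called 1645 features, 94.3% of the W5A_W18A calls and 72.2% of the W5A calls, and all 1645 had the same direction. Across the 5840 genes, which are not independent replicates, the log2 differences had Pearson's r = 0.979 and Spearman's rho = 0.953, given as a description. The controls were not independent in behaviour, since same-numbered W18A and CUP1_WT libraries deviated together. Over the 2277 W5A calls the median ratio of the W5A_W18A difference to the W5A difference was 0.858. These features were chosen for their W5A difference, and that choice alone can bring the ratio under 1. The ratio therefore does not show a weaker effect with W18A present.

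Tested directly, the difference between the 2 effects passed for no feature by limma, with 8 features at an unadjusted p under 0.05, and for none with voom weights, with 9. The median half-width of its 95% confidence interval, for a single gene and without adjustment, was 0.51 on the log2 scale. Smaller differences could not be seen for most genes, and with the adjustment over 5840 features larger ones can be missed too. YER076W-A, at a difference of 1.23 (SE 0.55), did not pass. For RPP2A the difference was -0.30 (95% confidence interval -1.49 to 0.89), for FIT2 0.08 (-1.42 to 1.59) and for SPS4 0.48 (-3.35 to 4.30). The lowest unadjusted p belonged to YPS6, a yapsin protease gene, at a difference of -0.69 and an adjusted p of 1.00 by limma.

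List by list, the values ran side by side. Of the 127 ribosomal protein genes 124 had the smaller log2 difference in the W18A background, where the median was 1.88 against 2.22 in the intact one, and their share of counts differed by 3.80 and 4.73 times. The W5A libraries held 3.52%, 3.13% and 1.98% of counts in these genes and CUP1_WT 0.529%, 0.457% and 0.837%. W5A replicate 3, at 1.98%, lay within the range of 1.81% to 2.39% of the W5A_W18A libraries. The median half-width of the interval for a single ribosomal gene was 1.12, larger than the median difference of -0.34. Spore wall genes had medians of -3.66 in the W18A background and -3.94 in the intact one, and prospore genes -2.55 and -2.75. The difference of effects was above 0, towards a smaller fall with W18A present, for 33 of 35 spore wall genes and 27 of 28 prospore genes. The median half-widths of the single-gene intervals were 2.67 and 1.77, far larger than the median differences of 0.25 and 0.24.

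**Figure D4:**
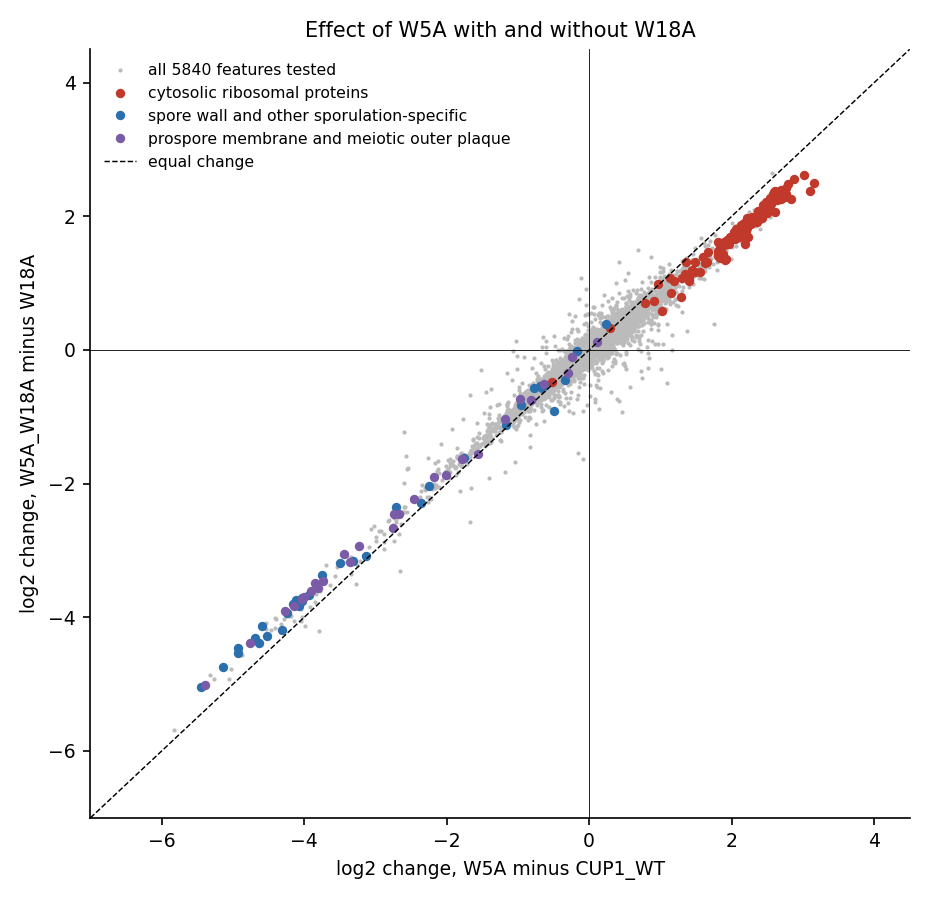
Log2 difference of each of 5840 features for W5A_W18A minus W18A (vertical axis) against W5A minus CUP1_WT (horizontal axis), with 3 gene lists in colour and a dashed line of equal change. Ribosomal protein genes (red) lie a little below the line, with medians of 1.88 and 2.22, and no feature passes the test of the difference.

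The absence of Pho92, set against the induced copy of CUP1_WT, gave a related but not identical pattern. PHO92 had a mean of 9746 CPM in CUP1_WT and of 938 CPM in the wild type. The comparison therefore does not set absence against the endogenous level. The comparison of pho92_null with CUP1_WT called 2332 features (39.9%), and 1154 were also called for W5A_W18A against W18A, 66.1% of the 1745 and 49.5% of the 2332. Of these 1148 had the same direction and 6 the opposite one, and r across genes was 0.840. The spore wall list fell in 28 of 35 cases there as well, with a median of -3.13, and ribosomal protein genes rose in 69 of 127, with a median of 1.03. Over all features 19.2% fell and 20.8% rose in that comparison. The ribosomal protein genes held 0.836%, 2.12% and 0.976% of counts in pho92_null, against 0.529%, 0.457% and 0.837% in CUP1_WT. Only pho92_null replicate 2 lay within the range of 1.81% to 2.39% of the W5A_W18A libraries. Replicate 1 of pho92_null was level with CUP1_WT replicate 3, so this rise was uneven between libraries. pho92_null replicate 1 stood apart from its strain, at 2.7 on the first principal component against 34.6 and 36.3.

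The difference of these effects, W5A_W18A minus W18A less pho92_null minus CUP1_WT, passed for 133 features (2.28%), 55 above 0 (0.942%) and 78 below 0 (1.34%). None of the 127 ribosomal protein genes was among them (median difference 0.84). Of the 73 mitochondrial ribosomal protein genes 17 were above 0, and 5 of 31 acetate-use genes were below 0. MRPS9, of the mitochondrial small subunit, had a log2 difference of -0.23 for W5A_W18A minus W18A and of -0.82 for pho92_null minus CUP1_WT (difference 0.59, SE 0.10, adjusted p = 0.00116 by limma). ACS2, an acetyl-CoA synthetase gene, had 0.57 and 2.13 (difference -1.56, SE 0.33, adjusted p = 0.00833 by limma). With a fit of the 4 strains alone, 25 features passed, 3 of them mitochondrial ribosomal protein genes. Leaving out single libraries gave 51 to 131 features, 51 without CUP1_WT replicate 2, 71 without W18A replicate 3, 77 without W5A_W18A replicate 2, 84 without pho92_null replicate 3 and 85 without W18A replicate 2. The 17 mitochondrial genes became 9 without CUP1_WT replicate 2 or 3 or pho92_null replicate 2, and 11 without W18A replicate 3 or W5A_W18A replicate 1 or 3.

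Set directly against pho92_null, W5A_W18A differed in 614 features (10.5%), 287 higher (4.91%) and 327 lower (5.6%). Of the mitochondrial ribosomal protein genes 44 of 73 were higher in W5A_W18A, and 11 of 31 acetate-use genes and 15 of 44 respiratory genes were lower. Of the cytosolic ribosomal protein genes 6 of 127 were higher, and none of the 35 spore wall genes was called (median log2 difference -0.45). The spore wall genes held 0.469% to 0.547% of counts in W5A_W18A and 0.419% to 1.36% in pho92_null.

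The m6A pocket mutant differed more clearly. W177A against CUP1_WT called 1197 features (20.5%), and 402 were shared with the W5A_W18A calls, 23% of the 1745 and 33.6% of the 1197, with 387 in the same direction and 15 opposite (r across genes 0.564). In W177A no cytosolic ribosomal protein gene was higher (13.5% of all features were) and 2 were lower (7.04% of all features were), with a median of -0.54, and these genes held 0.428%, 0.407% and 0.411% of counts. The difference of the effects, W5A_W18A minus W18A less W177A minus CUP1_WT, passed for 528 features (9.04%), 275 above 0 (4.71%) and 253 below 0 (4.33%). Among those above 0 were 115 of the 127 ribosomal protein genes, with a median difference of 2.37 on the log2 scale. Leaving out single libraries gave 96 to 116.

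Ribosome biogenesis had 21 above 0 and 1 below 0 of 114 in this difference, mitochondrial ribosomal proteins 8 above 0 of 73, and the respiratory chain 12 below 0 of 44. RPP2A had a log2 difference of 2.39 for W5A_W18A minus W18A and of -0.77 for W177A minus CUP1_WT (difference 3.16, SE 0.58, adjusted p = 0.00186 by limma). RPS31 had 2.38 and -0.77 (difference 3.15, SE 0.64, adjusted p = 0.0032 by limma). HSC82 ran the other way, at -0.78 and 0.17 (difference -0.95, SE 0.25, adjusted p = 0.0143 by limma). In the sporulation lists the difference was not resolved. The spore wall median was -3.66 for W5A_W18A and -1.82 for W177A, yet none of the 35 genes passed, and 1 of 28 prospore genes did. The count of 528 fell to 328 without CUP1_WT replicate 3 and to 337 to 351 without W177A replicate 2, W18A replicate 2, W18A replicate 3 or W5A_W18A replicate 1. With a fit of the 4 strains alone it was 804.

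**Figure D5:**
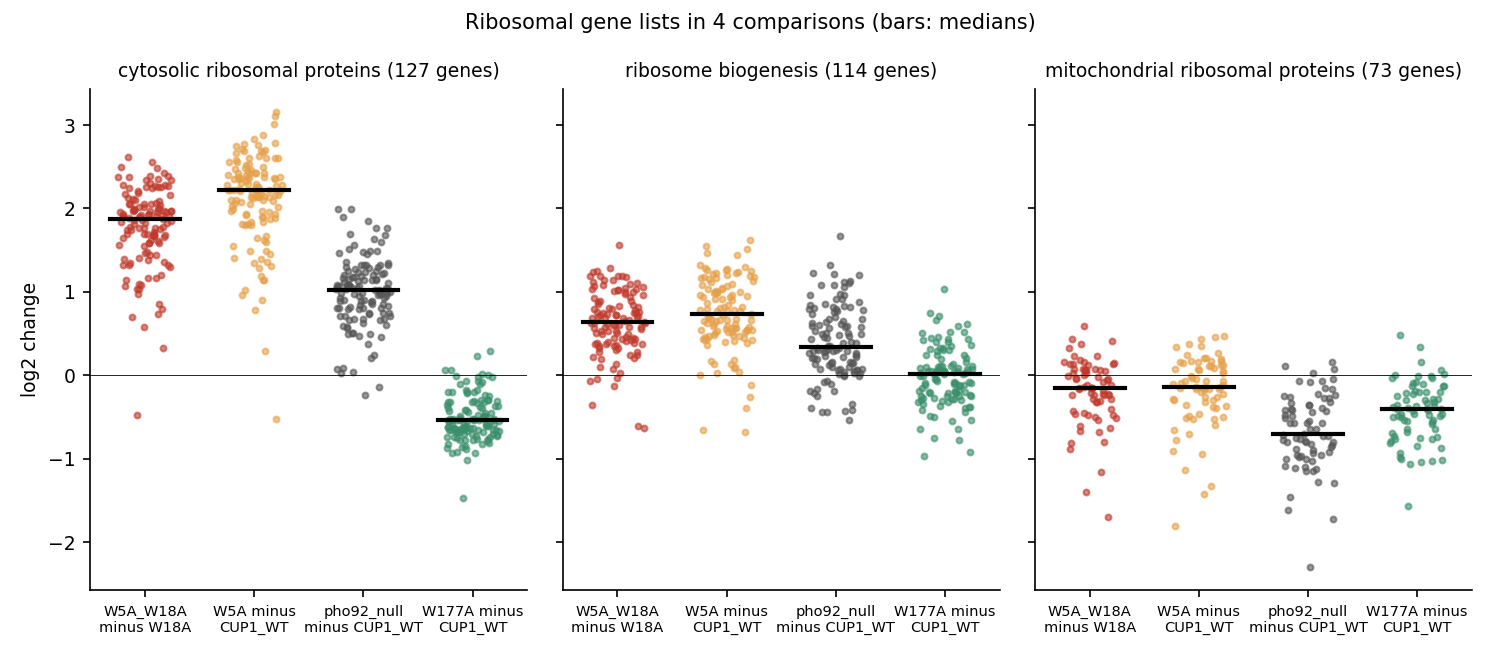
Log2 difference of each gene of 3 ribosomal lists in 4 comparisons, with a point per gene and a bar at the median. Cytosolic ribosomal protein genes have medians of 1.88 for W5A_W18A minus W18A, 2.22 for W5A, 1.03 for pho92_null and -0.54 for W177A minus CUP1_WT.

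Genes higher in the pocket mutant were then read in the W18A background. They were chosen on other libraries, but same-numbered libraries of CUP1_WT, against which they were chosen, deviate together with those of W18A, so the choice is not independent of the W18A libraries and the counts are a description. In a fit of W177A and CUP1_WT alone, 475 features were higher in W177A. In W5A_W18A against W18A 129 of them rose (27.2%, against 15.4% of all features) and 4 fell, with a median log2 difference of 0.26 against 0.02 over all features, and 78.5% lay above 0. None was a cytosolic ribosomal protein gene. Of the 144 features lower in W177A 43 fell with W5A_W18A (29.9%, against 14.4% of all features), with a median of -0.15. Another 20 rose (13.9%, near the 15.4% of all features), and 14 of those 20 were cytosolic ribosomal protein genes. Another set, of 257 features higher in pho92_null than in the wild type, held 141 that rose (54.9%) and none that fell in W5A_W18A, with a median of 0.51. Same-numbered W18A and wild-type libraries deviated together too, with correlations of 0.722, 0.210 and 0.790.

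MCD1 and ECO1, both in the first set and in that of pho92_null, were picked as examples after their values were seen. MCD1, the mitotic kleisin, had 14.3, 11.8 and 12.5 CPM in W5A_W18A, against 8.32, 7.54 and 10.5 CPM in W18A (log2 difference 0.55, SE 0.16, adjusted p = 0.0134 by limma). Its log2 difference in W177A against CUP1_WT was 2.09, and the difference between the effects was -1.53 (SE 0.23, adjusted p = 0.000266 by limma). ECO1, which acetylates cohesin, had 38, 39.6 and 37.2 CPM in W5A_W18A, against 31.3, 22.7 and 29.4 CPM in W18A (log2 difference 0.47, SE 0.11, adjusted p = 0.00267 by limma). In W177A it was 0.93, with a difference between the effects of -0.46 (SE 0.15, adjusted p = 0.0492 by limma). Both genes were higher in W5A_W18A than in W18A, without overlap of the libraries, and by less than in W177A.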

How the data were processed

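Poly(A) RNA of 39 libraries was sequenced, 3 from each of 13 strains, and libraries were grouped by their titles. Per the file headers, the authors deposited a single table, 1 column for each library, in which 47 heading and annotation lines stand above whole-number counts of 6186 features. The submitters' processing notes name STAR 2.7.10a, RSEM 1.3.1 and DESeq2 1.48.1, with no role or order, while the genome build and whether counting used strand are not given in the sources used here. Because each deposited column mixes other values with counts, its unit was recorded as other, and the planned log-scale test was kept. IDs of 5630 features matched RefSeq locus tags (assembly R64), 43 carry IDs beginning with Unit, and the other 513 kept the ID of the file.

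A feature was tested if 3 or more libraries reached the CPM that 10 counts give in the median library and its total was 15 or more (5840 features). Library sizes were adjusted by TMM (trimmed mean of M-values), a prior count of 2 was added, and log2 CPM was fitted by limma 3.58.1 (R 4.3.3) with a variance trend, a coefficient per strain and all 39 libraries in 1 fit. Fold changes of low genes are therefore understated. The Benjamini-Hochberg adjustment ran over all features, and an adjusted p under 0.05 was a call. Single shares were compared by exact permutation. Tables and figures were made with Python 3.11.15, pandas 2.3.3, scipy 1.17.1 and matplotlib 3.10.9, and the code was tested on simulated data. Depth is given with the results. Counting error is small beside the spread between libraries, and pairs of libraries within W5A_W18A or W18A differed by 33.4 to 511 times the chi-square expected from sampling alone, so no library was counted as a repeat of another. That check concerns counting noise alone and does not show that libraries came from separate cultures.

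Genes were named by a rule. PHO92 came first, then the 12 greatest rises and 12 greatest falls among called features with a RefSeq name, 1 direction in the 3 same-numbered pairs and 50 or more counts on average in the strain where they were higher, and for each of 33 lists up to 4 members of lowest adjusted p, with others by role. The comparison, its members, the lists and the rule were chosen with earlier results of these data known. Same-numbered libraries of W5A and CUP1_WT, whose numbers come from the titles, deviated from their strain means with correlations of 0.367, 0.193 and 0.157, so their numbers were taken to pair them, as were those of W18A and CUP1_WT.

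The alternatives were median-of-ratios (RLE) scaling, no low-count filter, a fit of only the strains compared, the replicate number as a block, a prior count of 0.5, voom weights, each library left out in turn and another choice of gene set. The tests of the difference from the W177A and pho92_null effects, the settings for W18A against CUP1_WT and the counts per list under these settings were added after the data were seen.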

Additional observations from a re-analysis of the deposited data

How the results depend on the processing

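The 1745 calls became 1751 with RLE scaling, 1709 without the filter, 1744 with a prior count of 0.5, 1728 with voom weights and 1861 in a fit of the 2 strains alone. Leaving out single libraries gave 741 to 1957 calls for W5A_W18A against W18A, 1251 to 2607 for W5A against CUP1_WT (lowest without CUP1_WT replicate 1), 328 to 507 for the difference from the W177A effect and 51 to 131 for that from the pho92_null effect. For lists it gave 13 to 33 spore wall genes lower, 14 to 22 prospore genes lower, 115 to 121 cytosolic ribosomal protein genes higher, 96 to 116 of these above the W177A effect, and 9 to 17 mitochondrial ribosomal protein genes above the pho92_null effect. A fit of only the strains compared gave 804 features that differ from the W177A effect, 25 that differ from the pho92_null effect and 3 mitochondrial ribosomal protein genes among the 25, and for PHO92 a log2 difference of 0.54 that passed (adjusted p = 0.0418 by limma). The set of genes higher in pho92_null than in the wild type had a median of 0.51, where that from W177A had 0.26, with 0.15 to 0.33 when single libraries were left out. Neither the log2 difference of PHO92 nor the median of the W177A set changed sign under the settings run. No sign changed among the 24 named genes either. They were chosen as the greatest called differences with 1 direction in the 3 same-numbered pairs, so their stable sign follows largely from that choice. The balance of calls did turn. The 902 higher and 843 lower became 959 and 998 without W18A replicate 3, the 275 above and 253 below in the difference from the W177A effect became 410 and 436 with the replicate block, and the 1218 higher and 1059 lower for W5A against CUP1_WT became 726 and 836 without CUP1_WT replicate 2 and 1289 and 1318 without CUP1_WT replicate 3. The causes of these shifts were not tested, and 579 of the 1745 features were called under all 13 alternatives, among them 16 of the 24 named genes.

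The replicate numbers are shared by the titles of all strains. Over the 39 libraries, same-numbered libraries of different strains deviated from their strain means with a mean correlation of 0.286, and differently numbered ones of -0.139. Same-numbered W5A_W18A and W18A libraries, however, had correlations of -0.075, -0.083 and -0.102, and not every library correlated best with its own number. The replicate block over all 39 libraries gave 2342 calls, 1191 higher and 1151 lower, and with the 2 strains alone 1425, 825 higher and 600 lower. The block over all libraries also gave 2767 calls for W5A against CUP1_WT, 846 features that differ from the W177A effect, 294 that differ from the pho92_null effect and 28 mitochondrial ribosomal protein genes among them, and with the 2 strains alone 1293 for W5A against CUP1_WT. For W18A against CUP1_WT it gave 2 calls, where every other setting gave 0 by limma, with 8 to 197 features at an unadjusted p under 0.05. The difference between the W5A effects in the 2 backgrounds passed for 0 features under each setting, with 8 to 27 at an unadjusted p under 0.05 by limma. GAT4 had 0.169 CPM in W5A_W18A replicate 1, where the prior count understates its fold.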

Other observations

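Of the 1745 called features 1258 lie outside the 33 lists, and those given here were chosen after their values were seen. STM1, a ribosome preservation factor, had 220, 242 and 186 CPM in W5A_W18A, against 64.2, 47.3 and 43.7 CPM in W18A (log2 difference 2.07, adjusted p = 0.000732 by limma). The elongation factor genes YEF3 (1.27) and EFT1 (1.26) rose as well, although EFT1 is nearly identical to EFT2. ZRT1, the high-affinity zinc transporter, had 495, 438 and 475 CPM in W5A_W18A, against 126, 87.6 and 148 CPM in W18A (log2 difference 1.99), and its low-affinity relative ZRT2 rose by 1.27. Each W5A_W18A library was above each W18A library for these genes.

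RKI1 (1.90) and TKL1 (1.32) of the pentose phosphate pathway, the aldehyde dehydrogenase ALD5 (1.85), the pyrimidine enzyme URA2 (1.53), the alcohol dehydrogenase ADH2 (1.33) and the branched-chain amino acid permease BAP2 (1.3) rose too. The steepest falls outside the lists had the order of W18A libraries seen in the sporulation genes. PES4, which encodes a poly(A)-binding protein, had 75.7, 130 and 103 CPM in W5A_W18A, against 2654, 1808 and 614 CPM in W18A (log2 difference -3.83). HIM1 (-4.19), the ubiquitin-conjugating enzyme gene UBC11 (-4.05), the cell wall gene PIR5 (-4.06), the putative chitinase gene CTS2 (-4.00) and GAL7 (-3.76) of galactose use fell as well. Of 39 tested features whose ID starts with Unit, which the files do not name, 4 rose and 10 fell, with a median of -0.35. Over all features 15.4% rose and 14.4% fell.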
